A study of Mus musculus with 4 samples.

Results

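Nuclear receptors are transcription factors that bind DNA through a pair of zinc fingers, and many of them are switched on by a small lipid-soluble ligand. The retinoid X receptors (RXR) are the shared partners with which the receptors for fatty acids, bile acids, foreign compounds, retinoic acid, thyroid hormone and vitamin D bind DNA. In the intestinal epithelium such receptors are known for matching fat oxidation, bile acid transport and detoxification to what passes through the lumen. The set described here held 37 members of the family, chosen by gene symbol, and left out the Hnf4 genes, Nr5a2 and Esrra. On the array, 35 of the 37 had at least 1 probe set with a single gene symbol, 93 probe sets in all out of 45037. Nr1h2 and Nr2e3 had none, so their expression was not analysed here.

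The study used 4 Affymetrix Mouse430_2 arrays, each hybridised with RNA of 1 sample. The 2 Yy1_KO samples had the genotype Yy1f/f; Shh-Cre and the 2 WT samples the genotype YY1f/f, so the floxed Yy1 alleles were in both groups and the Cre in the Yy1_KO samples alone. All were epithelium of the small intestine at E15.5, taken by magnetic selection for Epcam from littermates between the proximal stomach and the distal caecum, with up to 2 embryos pooled per sample. Shh-Cre is made from the Shh locus, which is active in gut endoderm. Losing Yy1, a zinc finger factor that activates some targets and represses others, and carrying the Cre cannot be told apart here, and the p-values reflect how far such pools of embryos differed.

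Yy1 itself was lower in Yy1_KO on all 4 of its probe sets, by log2 changes of -2.09 to -1.16, and the brightest probe set fell by 1.77 (SE 0.17, limma adjusted p = 0.00209). That call was lost without WT 2 (adjusted p = 0.0504). Shh, whose locus carries the Cre, had 5.55 and 5.36 in Yy1_KO and 7.42 and 7.38 in WT (change -1.95, SE 0.11, adjusted p = 0.000812). All 13 epithelium markers on the array were tested, 4 lower and 3 higher, with a median change of -0.08 and sums of linear intensities of 9652 to 10296 in Yy1_KO against 11048 to 11577 in WT. Epcam, by which the samples were selected, was among the 4 lower (-0.44, limma adjusted p = 0.0287). Markers of other cells also differed: 13 of 13 tested mesenchyme genes and 8 of 8 tested smooth muscle genes were higher in Yy1_KO, with summed linear intensities of 3062 to 3320 in Yy1_KO against 767 to 947 in WT for mesenchyme, and 2964 to 2979 against 259 to 408 for smooth muscle. For 5 of these mesenchyme and 2 of these smooth muscle genes both WT arrays were under 4, so only a rise was possible. Of 11 leukocyte genes 7 were tested and all 7 were higher, 3 of them with only a rise possible (sums of 639 to 762 in Yy1_KO and 202 to 209 in WT), while all 10 endothelial markers stayed under 4. The mesenchyme markers Pdgfra and Twist1, the smooth muscle markers Des, Lmod1 and Smtn, and the leukocyte markers Ptprc, Cd14, C1qa and C1qc were under 4 on every array. Of 6 tested pancreas and liver genes 4 were higher and 1 lower, and both tested erythroid genes were higher, 1 with only a rise possible. The other 5 of 7 erythroid genes on the array were under 4 on every array, as were 5 of 8 stomach genes. None of 8 enteric neural and glial genes on the array was tested, and 7 of them were under 4 on every array. Of 3 tested stomach genes Gkn1 (2.70) and Cldn18 (2.39) were higher, with only a rise possible, and Gata4 was lower (-0.64). All 11 tested enterocyte genes were lower, 3 of them with only a fall possible (sums of 1033 to 1231 in Yy1_KO and 9160 to 11984 in WT). The part of these differences in any receptor's change was not tested, and in bulk RNA fewer cells of a type and less RNA per cell cannot be told apart.

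Of the 35 receptors on the array, 16 counted as expressed, which meant a log2 GCRMA value of at least 4 on both WT arrays. In Yy1_KO epithelium 7 of the 16 were lower, 2 were higher and 7 did not pass (limma, adjusted p under 0.05). The lower ones were the receptors for bile acids (Nr1h4), fatty acids (Ppara), lipids (Pparg) and foreign compounds (Nr1i2), the shared partner Rxra, and the orphan receptors Esrrg and Nr2c2. Ppard and Nr4a2 were higher. Among all 8073 genes expressed on both WT arrays, 23.2% were lower and 14.3% higher, against 43.8% lower for the receptors. In 4 of the 7 lower receptors, Nr1h4, Ppara, Nr1i2 and Esrrg, both Yy1_KO arrays were under 4, so the filter left only a fall possible, as it did for 3.36% of all genes expressed in WT. The other 12 receptors were bright on all 4 arrays. Of these 3 were lower and 2 higher, which is 25.0% lower, close to the 20.4% of all genes bright on all 4 arrays (15.1% higher). The median log2 change was -0.30 over the 16 receptors and 0.06 over the 12, beside -0.06 and -0.03 over all genes of the same brightness.

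**Figure D1:**
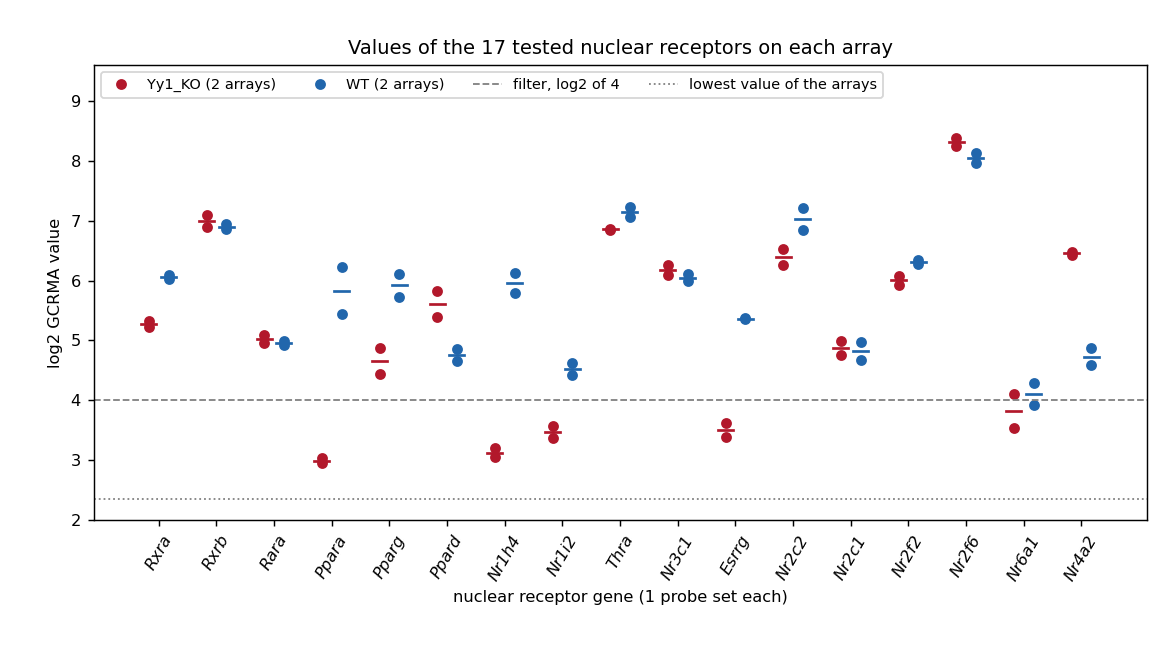
Log2 GCRMA value (vertical axis) of the 17 tested receptors on each of the 2 Yy1_KO arrays (red points, left of each pair) and 2 WT arrays (blue, right), with the mean as a bar, the filter at 4 dashed and the lowest array value dotted. Ppara, Nr1h4, Nr1i2 and Esrrg sit under the filter on both Yy1_KO arrays and above it on both WT arrays, and Nr4a2 shows the opposite order of groups with all its points above the filter.

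The remaining 18 receptors stayed under 4 on every array and every probe set. They were Rarb, Rarg and Rxrg among the retinoid receptors, Nr1h3, Nr1i3 and Nr0b2 among the sterol, bile acid and xenobiotic receptors and their repressor, Thrb and Vdr, the steroid receptors Nr3c2, Esr1 and Pgr, the estrogen-related receptor Esrrb, the clock repressors Nr1d1 and Nr1d2 with Rora, and Nr2f1, Nr4a1 and Nr4a3. Their highest value was 3.89, on an Nr1d2 probe set. In 4 of them, Esr1, Esrrb, Thrb and Vdr, every probe set was at the lowest value of the arrays (2.358) on all 4, and 26 of the 93 probe sets gave 1 value on all 4 arrays. Such a probe set gives no difference between groups and does not show that the gene is silent. At the threshold itself, Nr1i2 was the last receptor inside, with 4.42 and 4.63 on the WT arrays. Nr6a1, with 3.92 and 4.30 in WT, was the first outside, and was tested because 1 array of each group reached 4. Rarg, at 3.52 on all arrays, came next.

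Promoter windows of 5 receptors are printed because they belong to 2 receptors that fell most (Nr1h4, Ppara), the 2 that were higher (Ppard, Nr4a2), and the 1 with most matches to the letters of YY1 motifs (Rxrb). The windows run from 250 bases before to 50 after an annotated start and come from RefSeq (GRCm38.p6). Capitals mark the YY1 letters CCATNTT and ATGGCG and the nuclear receptor half-site AGGTCA, searched on both strands. In each Rxrb run of capitals both YY1 motifs overlap.
Nr1h4, chr10:89506609-89506908, minus strand: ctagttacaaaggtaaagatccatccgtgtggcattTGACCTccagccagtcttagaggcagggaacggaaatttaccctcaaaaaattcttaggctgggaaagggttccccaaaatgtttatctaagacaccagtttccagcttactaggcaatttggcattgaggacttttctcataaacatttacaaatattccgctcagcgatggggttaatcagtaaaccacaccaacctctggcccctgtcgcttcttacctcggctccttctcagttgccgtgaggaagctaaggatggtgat
Ppara, chr15:85735526-85735825, plus strand: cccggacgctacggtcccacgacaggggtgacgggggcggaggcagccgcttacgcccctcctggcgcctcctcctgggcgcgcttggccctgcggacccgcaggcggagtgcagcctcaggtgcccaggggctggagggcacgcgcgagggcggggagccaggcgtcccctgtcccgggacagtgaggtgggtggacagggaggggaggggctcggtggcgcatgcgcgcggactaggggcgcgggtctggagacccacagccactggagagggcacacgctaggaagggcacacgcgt
Ppard, chr17:28232504-28232803, plus strand: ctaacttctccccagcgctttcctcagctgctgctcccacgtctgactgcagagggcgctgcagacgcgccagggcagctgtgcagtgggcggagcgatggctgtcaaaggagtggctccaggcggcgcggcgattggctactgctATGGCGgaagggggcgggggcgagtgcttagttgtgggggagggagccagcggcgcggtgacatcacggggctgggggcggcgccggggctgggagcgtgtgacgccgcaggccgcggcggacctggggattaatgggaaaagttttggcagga
Nr4a2, chr2:57123954-57124253, minus strand: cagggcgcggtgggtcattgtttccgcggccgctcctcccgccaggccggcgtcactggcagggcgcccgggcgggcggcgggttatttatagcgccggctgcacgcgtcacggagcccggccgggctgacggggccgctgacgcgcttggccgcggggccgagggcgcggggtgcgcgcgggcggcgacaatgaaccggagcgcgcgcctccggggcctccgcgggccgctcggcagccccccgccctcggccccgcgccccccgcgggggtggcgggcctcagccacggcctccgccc
Rxrb, chr17:34031562-34031861, plus strand: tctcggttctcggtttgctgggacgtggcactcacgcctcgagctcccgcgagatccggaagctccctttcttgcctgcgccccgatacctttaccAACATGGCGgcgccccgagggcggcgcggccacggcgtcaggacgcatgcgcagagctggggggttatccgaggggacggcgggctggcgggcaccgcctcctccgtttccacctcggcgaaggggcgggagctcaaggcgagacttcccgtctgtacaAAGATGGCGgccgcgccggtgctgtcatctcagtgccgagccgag
Rxrb, a receptor that did not pass, held CCATNTT on the reverse strand from bases 97 and 256 of the window and ATGGCG from bases 100 and 259. Ppard, which was higher, held ATGGCG from base 147, and Nr1h4, which was lower, held AGGTCA on the reverse strand from base 37. No match to these letters was in the windows of Ppara and Nr4a2. A window was given for 35 of the 37 receptors, Nr1h2 and Nr2e3 among them and Thra and Nr3c1 not. Of these 35, 4 held CCATNTT (Pparg, Rora, Thrb, Rxrb), against 18.2% of 27025 genes. ATGGCG was in 5 (Nr2c2, Rora, Rara, Ppard, Rxrb), against 10.2% of genes, and AGGTCA in 9, Rxra and Pparg among them, against 18.1%. These are matches of letters only. They say nothing of binding, and 13 receptors had more than 1 window in the table.

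Among the RXR partners, Rxra was lower and Rxrb did not pass. Rxra had log2 values of 5.32 and 5.22 in Yy1_KO, against 6.02 and 6.10 in WT. The groups did not overlap, and the change was -0.79 (SE 0.11, limma adjusted p = 0.00508), 1.72-fold lower. It did not pass without WT 2 (adjusted p = 0.0625) or without Yy1_KO 2 (0.0524). Rxrb had 6.89 and 7.10 in Yy1_KO and 6.94 and 6.86 in WT. Its groups overlapped and its change was 0.10 (SE 0.12, adjusted p = 0.571). Rxrg, the remaining partner, was at 2.40 on all arrays. Rara, the receptor for retinoic acid with a bright probe set, had 4.96 and 5.08 in Yy1_KO and 4.99 and 4.92 in WT, and its groups overlapped as well (change 0.07, SE 0.11, adjusted p = 0.663).

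The peroxisome proliferator-activated receptors moved in both directions. Ppara, the fatty acid sensor that switches on oxidation genes, had 3.03 and 2.96 in Yy1_KO, against 5.44 and 6.22 in WT. Both Yy1_KO arrays lay far below both WT arrays, although the WT arrays differed from each other by more than those of any other tested receptor. The means were 2.99 ± 0.05 in Yy1_KO and 5.83 ± 0.56 in WT (SD, n = 2 each), a change of -2.84 (SE 0.26, adjusted p = 0.00185). Taking 4 as the least value that is measured, Ppara was at least 3.56-fold lower on this probe set. A further probe set (1449051_at) gave 3.30 and 3.31 in Yy1_KO and 5.03 and 5.15 in WT. Its change was smaller, -1.78 (adjusted p = 0.000850), or 3.44-fold as measured with Yy1_KO values under 4. Its WT mean of 5.09 was nearer to 4 than 5.83, so its own bound against 4 is smaller than the bound above. Pparg, a receptor known from fat cells and from gut epithelium, had 4.44 and 4.88 in Yy1_KO, against 5.72 and 6.12 in WT. It was bright on all 4 arrays and its groups did not overlap (change -1.26, SE 0.20, adjusted p = 0.00842, 2.40-fold lower). Without WT 2, Yy1_KO 1 or Yy1_KO 2 it did not pass (adjusted p = 0.0853, 0.0659 and 0.0510).

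Ppard, the widely made member of the same trio, had 5.39 and 5.82 in Yy1_KO, against 4.85 and 4.65 in WT. Both Yy1_KO arrays were above both WT arrays, with a change of 0.85 (SE 0.18, adjusted p = 0.0173), 1.81-fold higher. The call held only without Yy1_KO 1 (adjusted p = 0.0405) and was lost without WT 1, WT 2 or Yy1_KO 2 (0.0857, 0.139 and 0.0847). A dim second Ppard probe set (1439797_at), under 4 on every array, had 3.78 and 3.90 in Yy1_KO and 3.16 and 3.11 in WT.

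The receptors for bile acids and foreign compounds were lower. Nr1h4 encodes FXR, the bile acid receptor of ileum and liver, and had 3.05 and 3.19 in Yy1_KO, against 5.79 and 6.13 in WT. The groups were far apart and each pair of arrays was close. The mean was 3.12 ± 0.10 in Yy1_KO and 5.96 ± 0.24 in WT (SD, n = 2 each), a change of -2.84 (SE 0.15, adjusted p = 0.000738), or at least 3.89-fold lower against the threshold of 4. Nr1i2 encodes PXR, a sensor of drugs and other foreign compounds, and had 3.37 and 3.58 in Yy1_KO, against 4.42 and 4.63 in WT. Its groups did not overlap, but all 4 values were near the filter, and the fold against the threshold was at least 1.44 (change -1.05, SE 0.13, adjusted p = 0.00415). It did not pass without WT 2 (adjusted p = 0.0582). With an offset of 16 added before log2, which damps dim values, the changes were -1.66 for Nr1h4, -1.62 for Ppara, -1.07 for Esrrg and -0.53 for Nr1i2, each still passing.

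**Figure D2:**
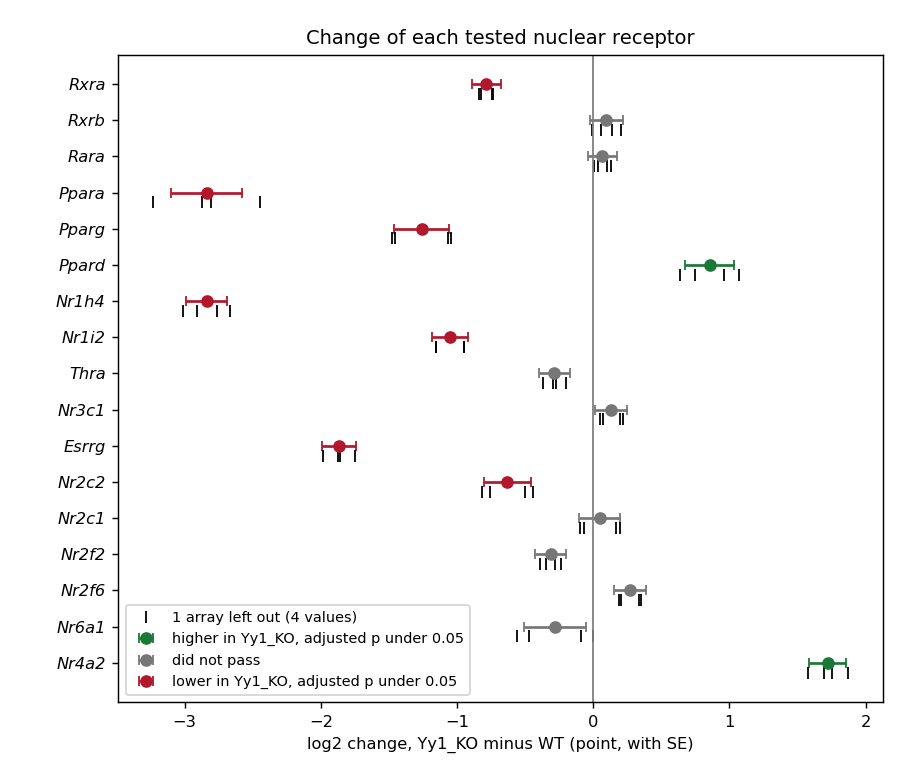
Log2 change, Yy1_KO minus WT, with its limma SE (horizontal axis) for the 17 tested receptors, coloured by direction and call, and the 4 values obtained with 1 array left out as ticks beneath each point. The points run from -2.84 for Ppara and Nr1h4 to 1.72 for Nr4a2, and the ticks of Nr2c1 and Rxrb lie on both sides of 0.

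The brightest probe sets of both expressed hormone receptors, Thra and Nr3c1, did not pass, but other Thra probe sets were lower. Thra, the thyroid hormone receptor with bright probe sets, had 6.87 and 6.85 in Yy1_KO and 7.06 and 7.23 in WT on the brightest of 3. The groups did not overlap there, but the change of -0.28 (SE 0.11) did not pass (adjusted p = 0.0991). The other 2 Thra probe sets did: 1426997_at had 4.80 and 4.65 in Yy1_KO against 5.63 and 5.79 in WT (change -0.99, adjusted p = 0.00368), and 1443952_at had 5.45 and 5.27 against 6.40 and 6.58 (change -1.13, adjusted p = 0.00291). All 3 had the same sign and differed in size, and averaged over them Thra was lower by -0.80 (adjusted p = 0.00343). Which Thra transcripts each probe set reads was not established here. Nr3c1, the glucocorticoid receptor, had 6.10 and 6.27 in Yy1_KO and 5.99 and 6.11 in WT, with overlapping groups (change 0.13, SE 0.12, adjusted p = 0.418). The 5 tested Nr3c1 probe sets gave changes of 0.13 to 0.33, and none passed.

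Esrrg, an orphan receptor related to the estrogen receptors and known for switching on mitochondrial genes in oxidative tissues, was lower on both tested probe sets. The brighter had 3.61 and 3.38 in Yy1_KO, against 5.37 and 5.36 in WT. Both WT arrays were alike and both Yy1_KO arrays were under the filter (change -1.87, SE 0.12, adjusted p = 0.00103), at least 2.58-fold lower against the threshold. The second (1421747_at) had 3.21 and 3.57 in Yy1_KO and 4.72 and 5.04 in WT (change -1.49, adjusted p = 0.00357).

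The orphan receptors of the Nr2 and Nr6 groups gave small changes, and 1 of 5 passed. Nr2c2, a testicular orphan receptor made in many tissues, had 6.52 and 6.26 in Yy1_KO, against 6.84 and 7.21 in WT on its brightest probe set, without overlap. The change of -0.63 (SE 0.17, adjusted p = 0.0371) passed, as did that of 1 of the other 4 tested probe sets, -0.43 (1451569_at, adjusted p = 0.0372). The changes on the other 3 were between -0.26 and 0.06. The Nr2c2 call was lost with any 1 array left out (adjusted p = 0.0662 to 0.201) and with the mean of its probe sets (-0.29, adjusted p = 0.109). Its close relative Nr2c1 had 4.99 and 4.76 in Yy1_KO and 4.68 and 4.98 in WT, with overlapping groups (change 0.05, SE 0.15, adjusted p = 0.828).

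Nr2f2, a COUP transcription factor found in mesenchyme, endothelium and other cells, had 6.08 and 5.92 in Yy1_KO and 6.35 and 6.28 in WT. Both Yy1_KO arrays lay below both WT arrays without passing (change -0.31, SE 0.11, adjusted p = 0.0793), and a further probe set gave 0.21 (adjusted p = 0.500). With a filter at log2 of 6 on 2 arrays, Nr2f2 passed as lower (limma adjusted p = 0.0495). The mesenchyme list rose on the same arrays, with a median of 2.24. Nr2f6 had 8.25 and 8.38 in Yy1_KO and 7.97 and 8.13 in WT, also apart without passing (change 0.27, SE 0.12, adjusted p = 0.126), and passed after quantile normalization (0.36, adjusted p = 0.0381). Nr6a1, the germ cell nuclear factor, had 3.54 and 4.11 in Yy1_KO and 3.92 and 4.30 in WT, with overlapping groups (change -0.28, SE 0.23, adjusted p = 0.377).

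Nr4a2, an immediate early receptor that is regulated by its own level and not by a ligand, was the receptor that rose most. On its brightest probe set it had 6.42 and 6.48 in Yy1_KO, against 4.88 and 4.58 in WT. Both Yy1_KO arrays were high and alike, and the change of 1.72 (SE 0.13, adjusted p = 0.00132) made it 3.30-fold higher. Of its 5 tested probe sets 4 passed as higher, and the changes were 0.29 to 1.73. The 1450750_a_at probe set had 5.25 and 5.35 in Yy1_KO, against 3.51 and 3.63 in WT, where only a rise was possible. Averaged over the 5, the change was 1.06 (adjusted p = 0.000932). Nr4a1 had 3.05 and 3.25 in Yy1_KO and 2.49 and 2.53 in WT, under the filter on every array and not tested, and Nr4a3 was at 2.36 to 2.37 on all.

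**Figure D3:**
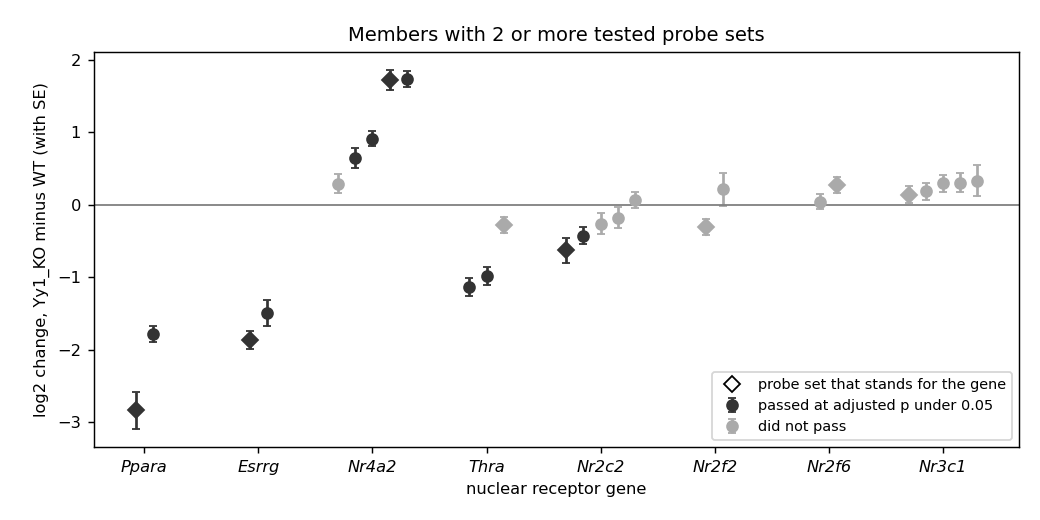
Log2 change, Yy1_KO minus WT, with its SE (vertical axis) on every tested probe set of the 8 receptors that had 2 or more, dark where it passed at an adjusted p under 0.05 and grey where it did not, with diamonds for the probe set that stands for the gene. The probe sets of Ppara, Esrrg, Thra, Nr4a2, Nr2f6 and Nr3c1 agree in sign within each gene, whereas those of Nr2c2 and Nr2f2 lie on both sides of 0.

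In the authors' deposited table of changes of at least 2-fold, 11 probe sets of 7 receptors were listed: Nr1h4, Ppara, Esrrg, Nr4a2, Thra, Nr1i2 and Pparg. The authors' deposited table gave Nr1h4 a log2 change of -2.84 with an adjusted p of 0.000142. It also listed a Ppara probe set that was not tested here (1457721_at, -1.44, adjusted p = 0.0185), and Thra through 1443952_at alone (-1.13, adjusted p = 0.00152).

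Nuclear receptors act through co-regulators, which bridge them to the transcription machinery or to histone deacetylases. Of the corepressor genes all 8 on the array were tested, and 1 was lower, 1 higher and 6 did not pass. Of 16 coactivator genes 14 were tested, and 4 were lower, 1 higher and 9 did not pass. Over all 8626 genes tested, 21.7% were lower and 17.9% higher, and the list medians were -0.03 and -0.30 beside -0.03 over all genes. Ppargc1b, a coactivator of Ppara and the estrogen-related receptors, had 5.62 and 5.32 in Yy1_KO, against 6.69 and 6.68 in WT (change -1.21, SE 0.14, adjusted p = 0.00303). The groups did not overlap, and the call was lost without WT 2 (adjusted p = 0.0551). The other coactivators named by size were Ncoa1 (-0.99, adjusted p = 0.0309), Ncoa4 (-0.81, adjusted p = 0.00770) and Ncoa6 (-0.64, adjusted p = 0.0242). Gps2, a subunit of a histone deacetylase corepressor complex, was higher (0.87, adjusted p = 0.00670), and the ligand-dependent corepressor Lcor was lower (-0.64, adjusted p = 0.0198).

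Most tested genes of the PPAR and LXR target lists were lower. On the PPAR list Pdk4, Angptl4, Cyp4a14, Ehhadh and Cd36 were under 4 on every array. Of its 18 genes on the array 12 were tested, 11 lower and 1 higher, and their median change was -1.25. By size of change the first 4 were the fatty acid binding proteins Fabp1 (-5.44, SE 0.19, adjusted p = 0.000560) and Fabp2 (-4.02, SE 0.15, adjusted p = 0.000672), the thioesterase Acot1 (-1.93, SE 0.12, adjusted p = 0.000913) and the acyl-CoA dehydrogenase Acadm (-1.84, SE 0.17, adjusted p = 0.00191). Fabp1 and Fabp2 are also on the enterocyte marker list, and the 1 higher gene, the pantetheinase Vnn1, was under 4 on both WT arrays and could only rise (0.97, adjusted p = 0.0228). The enterocyte list fell on the same arrays, with a median of -4.02, and its part in these falls was not tested. Of 5 tested genes of the LXR list (12 on the array) 4 were lower and 1 did not pass (median -1.62). The lower ones were the desaturases Scd1 (-2.39, with only a fall possible) and Scd2 (-1.62), the phospholipid acyltransferase Lpcat3 (-1.80) and the lipid synthesis factor Srebf1 (-0.59). The other 7, Abca1, Abcg1, Abcg5, Abcg8 and Mylip among them, were under 4 on every array. The LXR genes themselves, Nr1h3 and Nr1h2, were not tested.

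On the FXR list only 2 of 7 genes on the array were tested. Fgf15, Slc51b, Abcb4 and Abcb11 were under 4 on every array, WT included, with Fgf15 at the lowest value. Fabp6, with a highest value of 4.24, was not tested. Slc51a, a subunit of the basolateral bile acid exporter, had 3.84 and 4.14 in Yy1_KO, against 6.86 and 7.20 in WT (change -3.04, SE 0.17, adjusted p = 0.000768), and Osbp, an oxysterol binding protein whose place among FXR targets is uncertain, did not pass. Of 8 tested genes of the PXR and CAR list (14 on the array) 4 were lower and 1 higher (median -0.80). The other 6, Cyp3a11 and Cyp2b10 among them, were under 4 on every array. Lower were the export pump Abcc2 (-3.96, adjusted p = 0.000693), the aldehyde dehydrogenase Aldh1a7 (-2.04, adjusted p = 0.00349) and the pump Abcb1a (-1.90, adjusted p = 0.00180). For these 3 both Yy1_KO arrays were under the filter and only a fall was possible. The retinaldehyde dehydrogenase Aldh1a1 was higher (1.98, adjusted p = 0.00148).

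Tested targets of the glucocorticoid receptor were mixed, and those of the vitamin D and retinoic acid receptors were lower or did not pass, Rarres2 apart. Of 4 tested genes of the vitamin D list (8 on the array) 2 were lower and 2 did not pass (median -0.47). The lower ones were the calcium binding protein S100g (-3.69, SE 0.12, adjusted p = 0.000547) and the claudin Cldn2 (-0.73, adjusted p = 0.0420). Vdr itself was at the lowest value on all arrays. Of 5 tested genes of the retinoic acid list (12 on the array) 3 were lower and 1 higher (median -0.80). Lower were the homeobox genes Cdx1 (-2.74, with only a fall possible) and Isx (-1.37) and the reductase Dhrs3 (-0.80), and Rarres2 was higher (0.63). Of 10 tested genes of the glucocorticoid list (12 on the array) 3 were higher and 2 lower (median 0.02). The phosphatase Dusp1 (1.49), Klf9 (1.46) and the kinase Sgk1 (1.26, with only a rise possible) were higher. The 2 lower genes were the cell cycle inhibitor Cdkn1c (-1.29) and Fkbp5 (-0.66, limma adjusted p = 0.041). Of 7 tested clock genes (15 on the array) 1 passed, Bhlhe40, which was lower (-2.19, SE 0.19, adjusted p = 0.00161). Each list is set against 21.7% lower and 17.9% higher over all genes. Of the 30 genes named from these lists and the co-regulators, together with Yy1 and Shh, 5 did not pass without WT 1 (adjusted p = 0.0522 to 0.126) and 14 without WT 2 (0.0504 to 0.204). Without Yy1_KO 1 it was 9 (0.0553 to 0.136) and without Yy1_KO 2 it was 12 (0.0545 to 0.234). Cldn2, Ncoa6 and Srebf1 were among them each time, and Cdx1, Fabp1, Slc51a, S100g, Abcc2 and Bhlhe40 never.

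**Figure D4:**
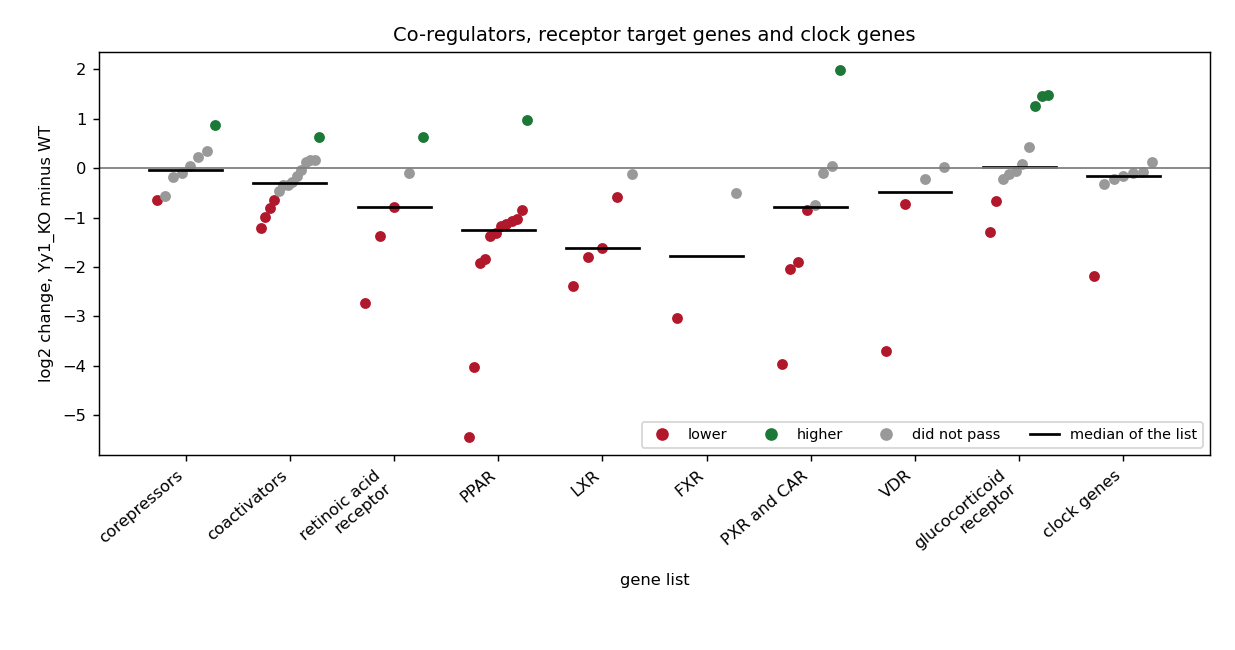
Log2 change, Yy1_KO minus WT (vertical axis), of each tested gene of the co-regulator, target and clock lists, 1 point per gene, coloured by call, with the list median as a bar. The PPAR list has 11 of 12 points below 0, and the glucocorticoid list has points on both sides with a median of 0.02.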

How the data were processed

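RNA of the 4 samples was hybridised to 1 array each. The deposited log2 values were made by the authors with GCRMA, and the authors' deposited table of log2 fold changes and p-values with limma, per the submitters' processing notes; its moderated t and log odds, deposited as scores, were not used. Versions and settings are not given in the sources used here. The authors' log2 changes had the sign of Yy1_KO minus WT on all 2156 listed probe sets, and the table starts at a 2-fold change.

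The 64 control probe sets were left out. Probe sets with log2 of at least 4 on at least 2 of 4 arrays, 16887 (37.5%), were compared, Yy1_KO minus WT, in limma (version 3.58.1, R version 4.3.3; lmFit, then eBayes), without covariates, with Benjamini-Hochberg adjustment over all of them; the fit was tested on simulated data. Each gene took its values from 1 tested probe set of a single symbol (2016 platform annotation), the brightest on average, which left 8626 genes. The median SE of a gene was 0.12, and the number of arrays limits the precision. "At least" folds set the WT mean against a log2 value of 4.

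The receptors and gene lists were chosen with earlier results of these data known, the lists from general knowledge. All receptors are named. From each co-regulator, target and clock list up to 4 passing genes whose arrays separated by group were named by size of change. Vnn1, Osbp, Fabp6, Fkbp5 and markers stand as values within a list. Replicates are pools of embryos per the series design, and samples with the same replicate number did not deviate together (r = -0.307 over 16887 probe sets), so no block was used. Alternatives covered the filter, offset, scaling, variance model, probe set choice, threshold, block and each array left out; a crossed block and an interquartile range filter were chosen after seeing the data.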

Additional observations from a re-analysis of the deposited data

How the results depend on the processing

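Of the 9 receptors that passed, Nr1h4, Ppara, Esrrg and Nr4a2 passed with each array left out. The 7 lower receptors became 3 to 6 and the 2 higher ones 1 to 2 with 1 array left out, in all tested receptors and in those expressed in WT alike. The 7 co-regulators became 0 to 4 (6 at an unadjusted limma p under 0.05 without WT 2, where the count was 0) and the 34 target and clock genes 20 to 28. With no filter on low values no receptor, co-regulator or target passed (0 of each, limma). At an unadjusted limma p under 0.05 there were 8 lower and 3 higher receptors, 10 co-regulators and 35 targets. Without the filter the log2 changes of the receptors stay the same and only the p-values move, so no sign could turn. In all, 39 genes were higher and 48 lower, against 1545 and 1871. A filter at log2 of 6 gave 3 lower and 1 higher receptors, and a filter at 4 on all 4 arrays gave 3 lower. Both test fewer receptors. At log2 of 6 the lower ones were Rxra, Nr2c2 and Nr2f2. Of these, Nr2f2 had not passed in the main fit (limma adjusted p = 0.0495 with this filter). At an adjusted p under 0.01, 1 higher receptor and 3 co-regulators were left, and 718 genes were higher and 893 lower. Co-regulators numbered 11 with the offset of 16 and 11 with a trended, robust variance. With the probe set of largest interquartile range, 1 higher receptor expressed in WT was left, because the Nr4a2 probe set then used was under 4 in WT, and Thra was lower (-1.13, adjusted p = 0.00291). With 1 array left out, Rxrb ranged from -0.012 (without Yy1_KO 2) to 0.20 and Nr2c1 from -0.10 (without WT 1; -0.07 without Yy1_KO 1) to 0.20, so their signs turned, and neither had passed. With the replicate block the counts were 6 lower and 2 higher receptors. Apart from Nr2c2 (limma adjusted p = 0.0656) and Cldn2 (0.0662), the block changed no call of a receptor, of Yy1 or Shh, or of a gene named by size of change. The crossed replicate block gave 7 lower and 2 higher. The interquartile range filter gave 7 lower and 3 higher receptors. All 17 receptors of the main fit kept their call under it, so the added higher receptor was not among them. Median centring and quantile normalization kept all 9 receptor calls, and quantile normalization added Nr2f6. The Gapdh 3' minus 5' signal, a measure of RNA quality, was higher by 0.29 in Yy1_KO and that of actin by 0.04; their part was not tested. Leaving out an array leaves its partner alone in the group, which is then taken to vary as the other group does.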
